A study of Drosophila melanogaster with 4 samples.

Results

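Nuclear transfer RNA (tRNA) genes are the short RNA polymerase III genes whose transcripts carry amino acids to the ribosome. They were examined here for trimethylation of histone H3 on lysine 4 (H3K4me3) in the Drosophila ovary, with and without germline depletion of the demethylase Lid/KDM5. The rule that picks the genes uses the annotation and no peak values, and takes every gene of biotype tRNA on the 6 nuclear chromosome arms. This gave 290 genes of 18164 annotated genes on these arms (transposable elements not counted). A gene was scored as having a peak when any base of a called peak lay within the gene or 500 bp on either side of it. The genes were parted into 33 "near" genes, which lay at most 500 bp from a start site of a protein-coding transcript, and 257 "away" genes. In brief, H3K4me3 peaks almost never lay on tRNA genes and were scarce within 250 bp of them, and 229 genes had no peak in any library. Where a strong peak lay within 500 bp, it was mostly at a coding promoter. In the lists as deposited, the number of tRNA genes with a peak differed less between control and lid KD ovaries than between the control libraries. With lists cut to equal length it did not, as the counts were 31 and 30 in the controls and 35 in each lid KD library.

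As background, tRNA genes carry their promoter inside the gene, as an A box and a B box bound by the factor TFIIIC, which brings TFIIIB to the DNA just upstream. RNA polymerase III then ends transcription at a run of T after the gene. H3K4me3 is known above all from RNA polymerase II promoters, where it marks the nucleosomes just downstream of active start sites. Lid removes this methylation. In flies the tRNA genes are spread in singles and small clusters, many with identical sequence, between or inside coding genes.

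Chromatin immunoprecipitation followed by sequencing (ChIP-Seq) was done on whole ovaries of 3 day-old females (the extraction protocol in the labels gives a younger age) with the antibody ab8580. The 2 control libraries came from females with the maternal triple driver alone (MTD-Gal4>+), and the 2 lid KD libraries from females in which it drove an shRNA for lid (MTD-Gal4>shRNA lid). All females thus carried MTD-Gal4, which is active in germ cells and not in the somatic follicle cells, whose chromatin was in the libraries too. Fewer cells of a type and less mark per cell cannot be told apart in such tissue. Control replicate 2 stood apart: its list held 25302 peaks, against 12087, 12832 and 13501 for control replicate 1 and the lid KD replicates. Its median fold enrichment, the ratio of the fragment pileup at the summit to the local background, was 2.17, against 2.59, 2.93 and 2.68 in the others. The lid KD libraries differed from each other by 1.01 counting errors (robust SD of the summit pileups over 4733 sets of promoter peaks), which is no more than sampling noise, while the controls differed by 3.10. The lid KD pair was therefore counted as 1 sample wherever a spread is given and in the sign-flip tests over 3 samples. The permutation tests of control against lid KD still took the 4 libraries as separate, so their p-values treat the pair as independent. Where MACS2 used its lowest background, this was 48.4 to 60.1 fragments, and the weakest peak called there had a fold enrichment of 1.34 to 1.36 in every library. Where the local background was higher, weaker peaks were called, with a fold enrichment down to 1.05 in control replicate 1. A gene without a peak is thus not shown to lack the mark. The lid gene itself (annotated as Kdm5) had promoter peaks of 5.96, 6.84, 6.43 and 6.28, and peak lists do not measure its transcript. Of the marker genes of the ovary, nos, osk and otu of the germline and tj, Fas3 and ct of the follicle cells had promoter peaks in all 4 libraries, vas had none, and aub had one in lid KD only (1.98 and 2.21). Of 4 markers of other tissues, elav and repo had peaks in all 4 libraries, of 1.92 to 3.28, and Hml and Mhc had none. The methods of the study call the replicates biological, each from the pooled ovaries of many females, so no value belongs to a single fly. In what follows, 4 values in a row stand for control replicates 1 and 2 and then lid KD replicates 1 and 2.

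The genes on which the results turn can be read in their own sequence. They are given 5′ to 3′ from the first base of the gene to 20 bases after its end, from the RefSeq dm6 assembly, with the B box match (GTTCNANNC, where N is any base) and the first TTTT after the gene in capitals. The first set shows glutamine tRNA genes around the start site of the coding gene CG4238 on chromosome arm 2L, which had the strongest peak close to any tRNA gene in lid KD, and an identical copy on X with no peak within 500 bp in any library.
tRNA:Gln-CTG-2-3 (chr2L:2009538-2009629, + strand, near, peak in all 4 libraries): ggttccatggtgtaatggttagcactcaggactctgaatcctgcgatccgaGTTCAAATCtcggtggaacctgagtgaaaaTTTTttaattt
tRNA:Gln-CTG-2-4 (chr2L:2010626-2010717, - strand, away, peak in all 4 libraries): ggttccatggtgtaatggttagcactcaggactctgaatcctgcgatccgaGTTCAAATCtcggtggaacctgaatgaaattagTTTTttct
tRNA:Gln-CTG-3-1 (chr2L:2010849-2010940, - strand, away, peak in all 4 libraries): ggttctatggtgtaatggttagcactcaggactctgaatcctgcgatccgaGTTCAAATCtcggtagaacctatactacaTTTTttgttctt
tRNA:Gln-CTG-2-1 (chrX:3819699-3819790, + strand, away, no peak): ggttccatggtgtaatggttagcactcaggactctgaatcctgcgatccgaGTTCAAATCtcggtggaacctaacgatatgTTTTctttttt

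The copies of Gln-CTG-2 share all 72 bases of the gene and part only in the bases after it, and Gln-CTG-3-1 differs from them at 2 positions, C6T and G66A, counted from 1 at the 5′ end. The second set shows arginine tRNA genes of 1 sequence, a pair inside the coding gene pyd on 3R that stand on either side of a weak peak, and a copy on X with none.
tRNA:Arg-TCG-2-3 (chr3R:8861880-8861972, + strand, away, peak in all 4 libraries): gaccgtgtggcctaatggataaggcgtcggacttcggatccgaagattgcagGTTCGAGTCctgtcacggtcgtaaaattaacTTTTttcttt
tRNA:Arg-TCG-2-4 (chr3R:8862933-8863025, + strand, away, peak in all 4 libraries): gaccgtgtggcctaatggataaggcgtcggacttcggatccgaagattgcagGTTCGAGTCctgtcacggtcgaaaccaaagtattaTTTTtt
tRNA:Arg-TCG-2-1 (chrX:14014814-14014906, + strand, away, no peak): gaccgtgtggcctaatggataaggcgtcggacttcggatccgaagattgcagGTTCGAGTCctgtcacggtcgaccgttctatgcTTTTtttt
The third set shows serine tRNA genes of 1 sequence, with a strong peak 269 to 333 bp away on 2L and none near the copy on X.
tRNA:Ser-AGA-2-3 (chr2L:3169582-3169683, + strand, away, peak in all 4 libraries): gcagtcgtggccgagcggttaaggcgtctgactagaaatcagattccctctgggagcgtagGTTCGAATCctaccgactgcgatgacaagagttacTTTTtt
tRNA:Ser-AGA-2-1 (chrX:14025546-14025647, - strand, away, no peak): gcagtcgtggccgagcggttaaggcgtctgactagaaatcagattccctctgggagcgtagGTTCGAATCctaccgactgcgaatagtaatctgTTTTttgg
The fourth set shows the 3 identical proline tRNA genes that were scored in control replicate 1 alone.
tRNA:Pro-CGG-2-1 (chrX:18565764-18565855, + strand, near, peak in control replicate 1): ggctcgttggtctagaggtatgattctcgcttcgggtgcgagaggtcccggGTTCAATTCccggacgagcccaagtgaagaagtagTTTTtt
tRNA:Pro-CGG-2-2 (chr3L:17339889-17339980, - strand, away, peak in control replicate 1): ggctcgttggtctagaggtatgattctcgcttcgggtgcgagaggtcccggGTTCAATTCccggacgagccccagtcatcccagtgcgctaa
tRNA:Pro-CGG-2-3 (chr3L:18618390-18618481, + strand, near, peak in control replicate 1): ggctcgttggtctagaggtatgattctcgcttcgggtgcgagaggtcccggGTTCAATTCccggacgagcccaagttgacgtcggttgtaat

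The B box letters were found in 271 of the 290 genes (both strands searched), against 2.06% of genome tiles of the same 73 bases, and in 58 of the 61 genes with a peak in any library. TTTT was found in the 40 bases after the gene in 287 of 290, against 26.9% of 40-base tiles read on 1 strand. The B box letters were thus shared by genes with and without a peak, and nearly all genes had the terminator letters. The A box was not searched for.

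What the genes shared, apart from the rule, was a gap in the peak lists (the coverage profile around tRNA genes). Of the bases of the 290 genes, 0%, 0.372%, 0.704% and 0.331% lay in a peak in the 4 libraries. Over the whole arms the same shares were 5.76%, 9.67%, 5.52% and 5.82%. The gap was wider than the gene. In the bases 1 to 250 bp from a tRNA gene, peaks covered 0.623%, 1.08%, 0.766% and 0.798%, and in those 250 to 500 bp away 3.15%, 5.72%, 3.9% and 4.39%. From 500 to 1000 bp the coverage was 6.05%, 9.45%, 5.99% and 6.20%, close to that of the arms, and from 1000 to 2000 bp it was above it in all 4 libraries, at 7.14%, 10.9%, 6.91% and 7.04%. The difference from the arms averaged -6.34 percentage points in the gene, -5.87 at 1 to 250 bp, -2.40 at 250 to 500 bp and 1.29 at 1000 to 2000 bp. Each had the same sign in 4 of 4 libraries. With the lid KD pair as 1 sample, the exact two-sided sign-flip test over 3 samples gave p = 0.25 for each, the smallest it allows. At 500 to 1000 bp the mean difference was 0.23 percentage points, with control replicate 2 below the arms (p = 0.5 in the same exact test).

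**Figure D1:**
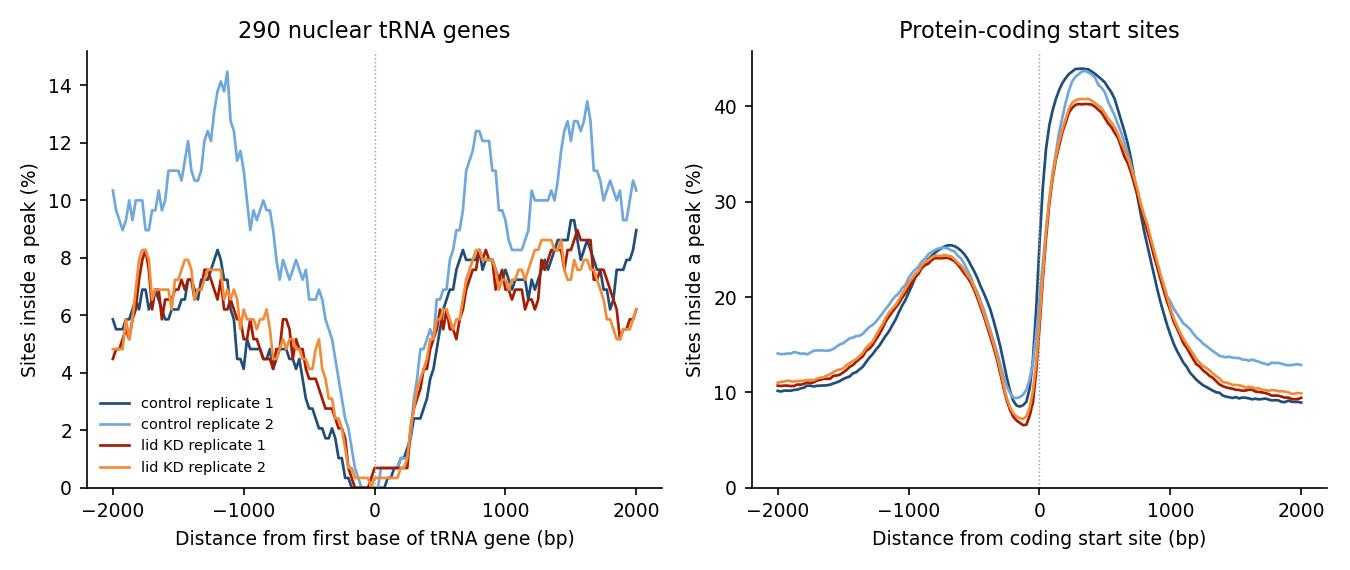
Share of sites inside a called peak (vertical axis, percent) by distance in bp (horizontal axis, direction of transcription to the right) from the first base of the 290 tRNA genes (left) and from the start sites of 13945 coding genes (right), 1 line per library. Around tRNA genes every line comes down to below 1% at the gene, while past coding start sites the lines rise to 40.2% to 43.9% at 300 bp downstream and have their top at 325 to 375 bp. The vertical scales differ.

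Coding start sites also had a dip in peak coverage, upstream of the start site and beside a summit. Its lowest shares were 8.52%, 9.41%, 6.57% and 7.24%, at 125 to 175 bp upstream, so it did not come down to below 1% as at tRNA genes. The first base of the 13945 coding genes was inside a peak in 25.5%, 19.7%, 16.8% and 17.7% of genes. At 300 bp downstream the share was 43.9%, 43.4%, 40.2% and 40.7%. At tRNA genes there was no such shoulder within 250 bp on either side. Coverage was higher downstream than upstream of the tRNA gene in 4 of 4 libraries at each distance up to 1000 bp. The mean difference was 0.66 percentage points at 1 to 250 bp (range 0.44 to 0.96). It was 1.53 at 250 to 500 bp (range 0.22 to 2.40) and 2.25 at 500 to 1000 bp (range 1.86 to 3.15). Each had p = 0.25 in the exact sign-flip test over 3 samples. The 32 annotated small nuclear RNA genes, short genes of another kind, had 0% of their bases in a peak in 3 libraries and 12.2% in control replicate 2.

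Only 2 of the 290 tRNA genes were touched by any peak. tRNA:Arg-TCT-1-1 (2R, 11652367 to 11652439, 510 bp from a start site of CG34228) was touched by peaks of 1.5 in control replicate 2 and of 4.14 and 3.51 in the lid KD libraries, and in control replicate 1 a peak of 6.76 ended 4 bp from it. tRNA:Leu-AAG-1-4 (2R, 18770131 to 18770212), inside Mctp, was touched by peaks of 4.11 in control replicate 2 and 3.58 in lid KD replicate 1. In the other libraries, peaks of 2.88 and 3.60 ended 114 and 116 bp from it. No summit lay inside a tRNA gene. Among the strongest peaks of the scored genes only 1 summit was within 200 bp, 52 bp from tRNA:Gln-CTG-1-1 in lid KD replicate 2, in a weak peak of 1.42. The median distance from gene to summit was 619, 491, 500 and 491 bp in the 4 libraries.

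The authors kept uniquely aligned reads, and 50-base words that overlap a tRNA gene were found only at that place in the genome for a median of 77.0% of the words of a gene. In the flanks from 1 to 250 bp the median was 100%, and all words there were unique at 209 genes. At these 209 genes peaks covered 0.662%, 1.20%, 0.960% and 0.986% of the bases 1 to 250 bp away. At the other 81 genes the coverage was lower, at 0.523%, 0.778%, 0.267% and 0.314%. The part of read uniqueness in the gap was not tested. Of the 17 genes whose own words were all unique, 0 were touched in control replicate 1 and 1 in each of the other libraries. A peak came within 250 bp of 1, 4, 2 and 3 of these 17, against 10, 21, 15 and 17 of all 290 genes. Base composition also differed: the 1073 bp windows around tRNA genes had a median GC content of 38.4%, against 42.2% for the arms, and its part in the result was not tested. When bases within 500 bp of coding start sites were left out, the coverage was still below the arms in 4 of 4 libraries, with mean differences of -4.11 percentage points in the gene, -3.92 at 1 to 250 bp and -1.47 at 250 to 500 bp.

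Peaks in the wider window, 500 bp on either side, were counted next. A peak was found within 500 bp of 31, 51, 36 and 39 of the 290 genes, which is 10.7%, 17.6%, 12.4% and 13.4% of the genes. These genes shared 25, 42, 28 and 32 distinct peaks, since neighbouring genes can have the same one. Among 124768 genome tiles of the same length, 13.4%, 26.0%, 13.4% and 14.1% had a peak. The tRNA share was lower in 4 of 4 libraries, with a mean difference of -3.19 percentage points (range -8.39 to -0.69, exact sign-flip test over 3 samples, p = 0.25). Over the 4 libraries, 229 genes had no peak in any of them, 61 had a peak in at least 1 and 20 in all 4. No such counts over the tiles are given.

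Distance to a coding start site went with the calls. Of the 33 near genes, 11, 8, 9 and 9 had a peak, or 33.3%, 24.2%, 27.3% and 27.3%. Of the 257 away genes, 20, 43, 27 and 30 had a peak, or 7.78%, 16.7%, 10.5% and 11.7%. The near share was higher in 4 of 4 libraries, by 16.4 percentage points on average (range 7.51 to 25.6, exact sign-flip test over 3 samples, p = 0.25). Among the away genes, 92 lay 500 bp to 2 kb from a start site, and 18, 24, 19 and 21 of them had a peak. Of the 106 genes at 2 to 10 kb it was 2, 14, 6 and 7, and of the 59 genes beyond 10 kb it was 0, 5, 2 and 2. Tiles of the genome at the same distances had a peak more often than tRNA genes in 4 of 4 libraries in the first 3 classes, with mean differences (tRNA minus tiles) of -18.6, -6.04 and -3.8 percentage points, each with p = 0.25 in the exact sign-flip test over 3 samples. Beyond 10 kb the mean difference was 0.07 percentage points, with tRNA genes lower in 2 of 4 libraries (p = 1 in the same exact test).

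**Figure D2:**
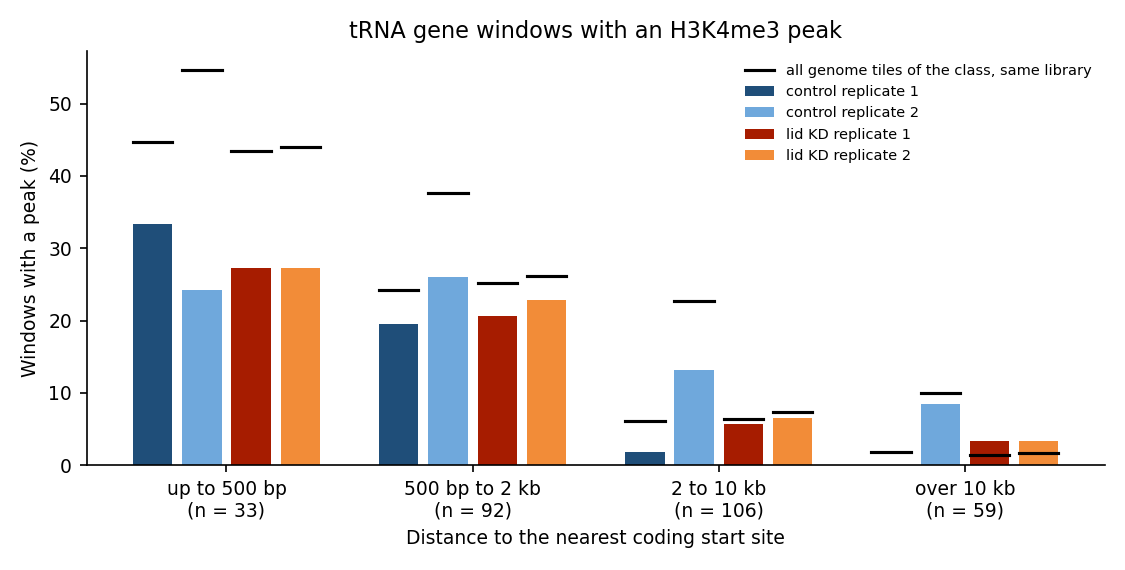
Share of tRNA gene windows with a peak (bars, percent) by distance to the nearest coding start site, 1 bar per library, with the number of genes under each class. The black line over each bar is the share among all genome tiles in the same class and library. The bars stay below the lines up to 10 kb, and control replicate 2 has the tallest bars and lines beyond 2 kb.

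Near genes also stood beside start sites that less often had a peak than the most upstream start sites of coding genes. Among the windows around the most upstream start site of all 13945 coding genes, 50.6%, 58.5%, 49.1% and 49.8% had a peak. The near tRNA genes differed from this by -24.0 percentage points on average (range -34.3 to -17.3, lower in 4 of 4 libraries, exact sign-flip test over 3 samples, p = 0.25). The 33 near genes faced 30 distinct coding start sites, and the windows of these start sites themselves had a peak at 9, 8, 9 and 9 of 30. The mean difference from all coding windows was -22.8 percentage points, lower in 4 of 4 libraries (exact sign-flip test over 3 samples, p = 0.25). These 30 were the nearest start sites of any coding transcript, not only the most upstream ones, so the sets compared differ in kind. The coding gene was transcribed away from the tRNA gene in 28 of the 33 cases and over it in 4, and in 1 case (tRNA:Tyr-GTA-1-9) the annotated start site lay in the tRNA gene. Every near gene with a peak belonged to the 28. The coding start site lay between the tRNA gene and the summit at 8 of 11, 6 of 8, 7 of 9 and 7 of 9 of them, so most of these summits were on the far side of the coding start site.

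Within the near class the top ranks were held by 5 promoter peaks. The first was at the CG4238 promoter beside tRNA:Gln-CTG-2-3, whose sequence is given above. Its peak stood at 9.05, 13.3, 13.9 and 14.3 times background. The peak began 177 to 235 bp from the gene. On its other side stood tRNA:Gln-CTG-2-4 and tRNA:Gln-CTG-3-1, both inside CG4238. The gaps to Gln-CTG-2-4 were 63, 216, 203 and 177 bp, so the peak lay between tRNA genes without reaching them. The next gene of the locus, tRNA:Gln-CTG-2-2, was scored only in lid KD replicate 2, for a separate peak of 1.96, since the promoter peak ended 560 to 618 bp from it in the other libraries.

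tRNA:Trp-CCA-2-2 and tRNA:Gly-GCC-1-9 had the CG30122 promoter peak of 10.4, 11.6, 11.5 and 11.5 beside them. tRNA:Gly-GCC-1-13, beside tud (a germ plasm component), had peaks of 9.24, 10.3, 10.1 and 9.99. tRNA:His-GTG-1-3 and tRNA:His-GTG-1-4 stood on either side of a peak of 6.16, 8.80, 7.73 and 7.07, whose edge lay 26 to 162 bp from a start site of CG8490. tRNA:Phe-GAA-1-2 was beside RpL17, a protein of the large ribosomal subunit, with peaks of 5.75, 8.31, 6.39 and 6.16. All 4 libraries had a peak at each of them, and the lowest percentile rank among these peaks in any library was 77.4. The percentile rank places a peak among the 12087 strongest peaks of its library, with 100 the strongest and 0 for a peak outside them.

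The away genes with a peak in all 4 libraries numbered 12, and their peaks ranged from strong promoter peaks that reached to within 500 bp to weak peaks far from any start site. tRNA:Gln-CTG-2-4 and tRNA:Gln-CTG-3-1 shared the CG4238 peak above. tRNA:Ser-AGA-2-3 had peaks of 7.5, 5.61, 7.22 and 6.56 at CG44002, and tRNA:Ser-TGA-2-1 had peaks of 6.14, 7.25, 6.0 and 5.64 at Fib, which encodes the nucleolar methyltransferase fibrillarin, with the summit 1711, 1819, 1670 and 1791 bp from the first base of the tRNA gene. tRNA:Leu-AAG-1-4 in Mctp, described above, had its peak over 500 bp from any coding start site in all 4 libraries. tRNA:Arg-TCT-1-1 and its neighbour tRNA:Met-CAT-1-1 had 6.76, 2.41, 4.14 and 3.51 as their strongest peak within 500 bp, with the controls as the highest and the lowest libraries. The 2.41 of control replicate 2 was another peak, on the upstream side of Arg-TCT-1-1, and its peak at the position of the others was the one of 1.5 described above. tRNA:Arg-ACG-1-3, 520 bp from a start site of EcR, the ecdysone receptor, had peaks of 2.26, 2.55, 2.12 and 2.05, and tRNA:Asn-GTT-1-1, inside EcR, had peaks of 1.69, 2.86, 1.86 and 1.96. The pyd pair tRNA:Arg-TCG-2-3 and tRNA:Arg-TCG-2-4 had their shared peak at 1.69, 2.53, 1.56 and 1.77, and tRNA:Leu-CAG-1-2 had peaks of 1.75, 1.78, 1.59 and 1.93. The lowest of all these values, 1.56, was that of the pyd pair in lid KD replicate 1.

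**Figure D3:**
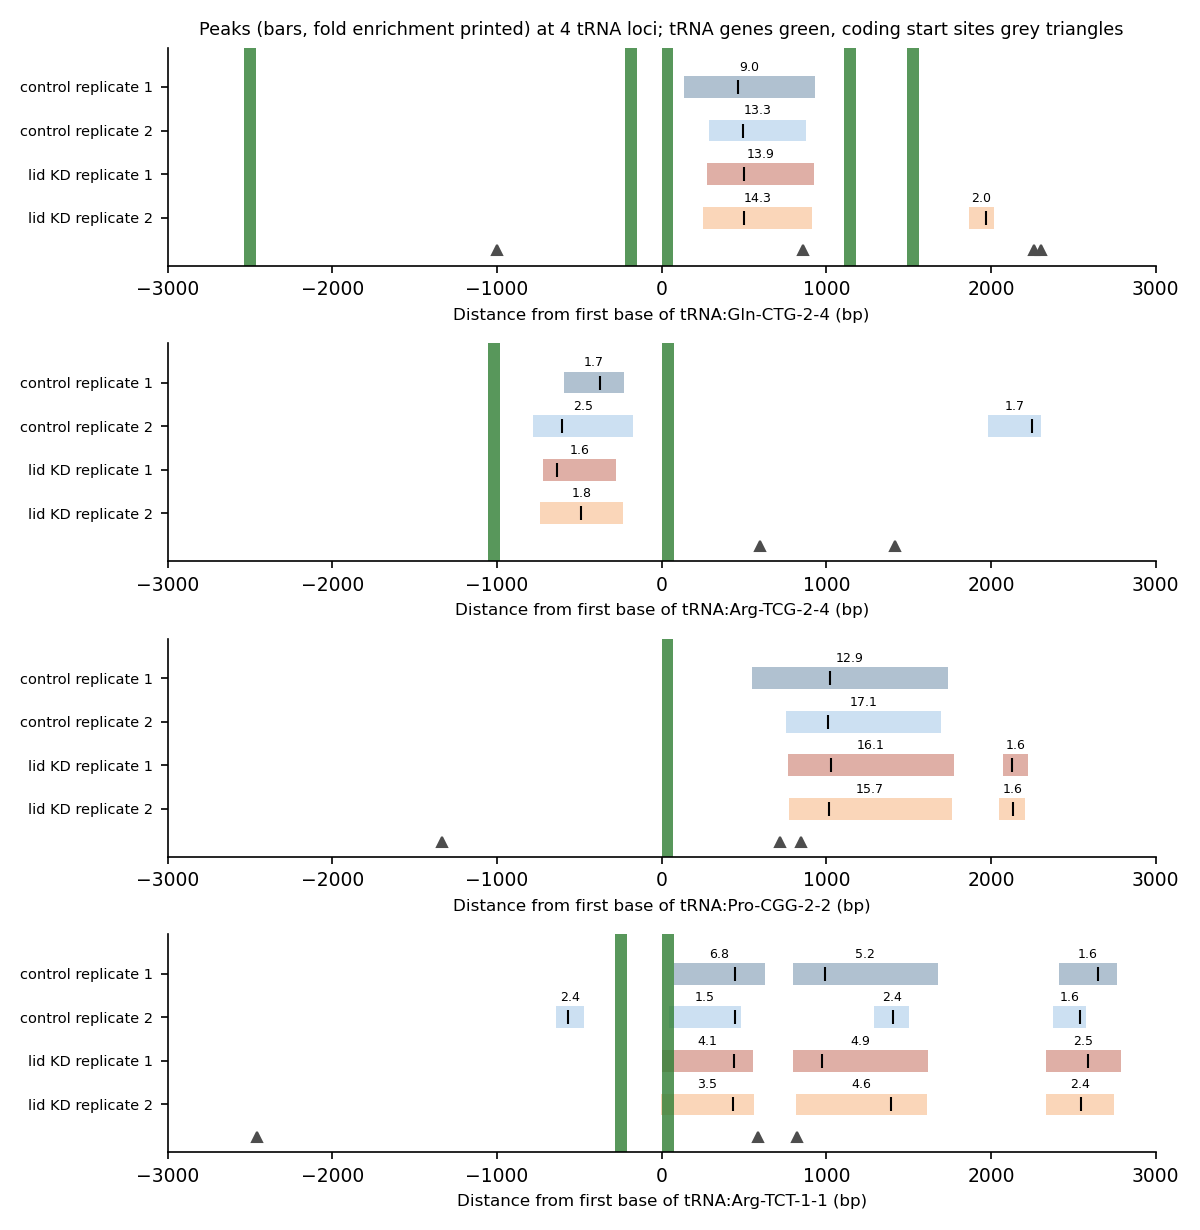
Called peaks (bars, with the fold enrichment printed over them and the summit as a black tick) in each library around 4 tRNA genes, by distance in bp from the first base of the named gene in its direction of transcription. Green bands are tRNA genes and grey triangles are coding start sites. Peaks stop short of the tRNA genes at the first 3 loci and touch the gene in 3 libraries at tRNA:Arg-TCT-1-1.

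Over all away genes, peaks close to a coding start site and the other peaks differed in median strength, which is given here with no test. The same medians over all peaks of a library are not given, so the difference is not read as particular to tRNA genes. Where the strongest peak lay at most 500 bp from a coding start site (12, 8, 11 and 11 genes), the median fold enrichment was 6.45, 2.71, 6.0 and 5.64. Where it did not (8, 35, 16 and 19 genes), the median was 1.69, 2.17, 1.71 and 1.79. The promoter median was higher in all 4 libraries, by the least in control replicate 2, whose other peaks were more numerous. For the near genes, whose strongest peaks all lay within 500 bp of a start site, the median was 6.16, 9.57, 7.73 and 7.07. The highest value away from start sites was 5.61, at tRNA:Ser-AGA-2-3 in control replicate 2, whose peak lay within 500 bp of a start site in the other libraries.

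**Figure D4:**
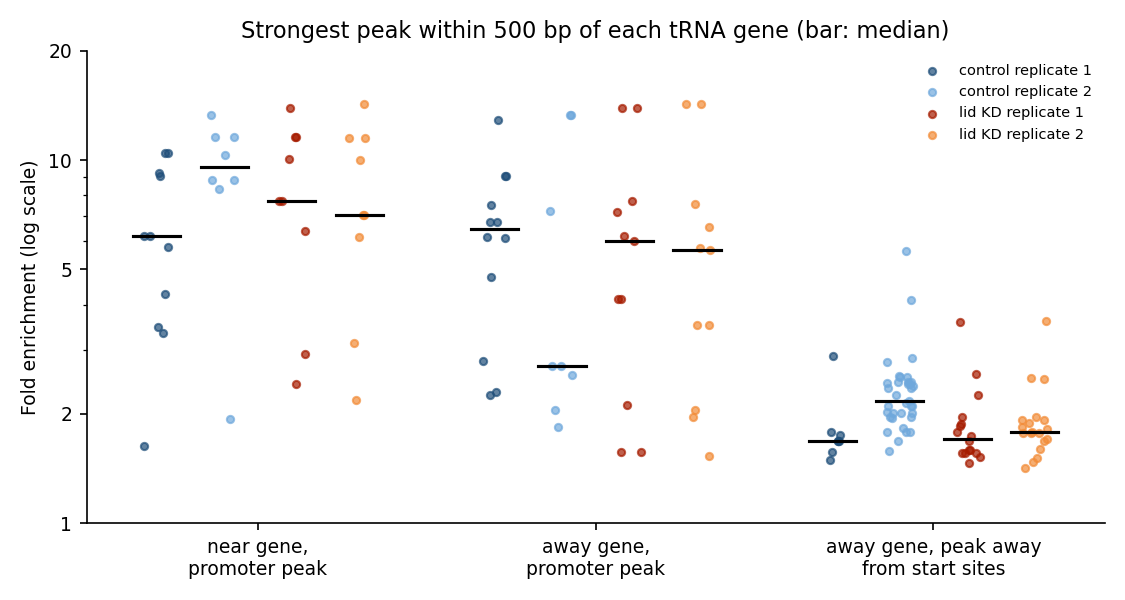
Fold enrichment of the strongest peak within 500 bp of each tRNA gene that had one (points, logarithmic axis), by class of gene and of peak, 1 column of points per library with its median as a black bar. The medians of the peaks away from start sites are 1.69 to 2.17, and those of the other columns are 2.71 to 9.57.

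Copies of 1 tRNA sequence shared their calls in some families and not in others. The 290 genes had 95 distinct sequences, and 238 genes belonged to 43 families of at least 2 identical genes. Of these families, 21 held both genes with a peak in some library and genes with none, 20 had no gene with a peak and 2 had a peak at every gene. Gln-CTG-2 had 5 copies of which 3 had a peak in at least 1 library, Arg-TCG-2 had 3 of 4 and Ser-AGA-2 had 2 of 5. Over all amino acids, 61 of 290 genes had a peak in any library. The shares were lower for lysine (1 of 19), alanine and threonine (1 of 17 each) and valine (1 of 15). Among amino acids with at least 5 genes, the highest shares were those of histidine (3 of 5), tryptophan (4 of 8) and glutamine (5 of 12). Arginine had the most genes with a peak (8 of 26). Some of the histidine and glutamine genes shared a peak with a neighbour, so their counts rest on fewer peaks. No difference between amino acids was tested. Genes inside a coding gene had a peak slightly less often than those outside, with 13, 20, 14 and 17 of 134 against 18, 31, 22 and 22 of 156, lower in 4 of 4 libraries with a mean difference of -2.96 percentage points (exact sign-flip test over 3 samples, p = 0.25).

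The proline genes Pro-CGG-2 show how a call at 500 bp can turn on the edge of a peak. All 3 were scored in control replicate 1 only, with peaks of 4.27 at tRNA:Pro-CGG-2-1 (beside Bx, which encodes a LIM-only protein), 12.9 at tRNA:Pro-CGG-2-2 and 3.34 at tRNA:Pro-CGG-2-3. At tRNA:Pro-CGG-2-2 the peak ended 478 bp from the gene in control replicate 1 and 683, 696 and 700 bp from it in the others, where its fold enrichment was 17.1, 16.1 and 15.7. At tRNA:Pro-CGG-2-1 the gaps were 498, 588, 546 and 542 bp. At tRNA:Pro-CGG-2-3 they were 468, 1299, 519 and 518 bp, so that control replicate 2 had no peak just outside the window. The peak at tRNA:Pro-CGG-2-2 was 1191 bp wide in control replicate 1 and 943 to 1010 bp in the others.

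The initiator methionine tRNA, which begins translation, and the selenocysteine tRNA were looked at by name. Of 6 initiator genes only tRNA:iMet-CAT-1-3 was scored, in control replicate 2, with a peak of 2.43 that lay 299 bp away. At the other 5 the nearest peak lay over 500 bp away in every library, the closest being 528 bp from tRNA:iMet-CAT-1-5 in control replicate 2. The single selenocysteine gene, tRNA:SeC-TCA-1-1, had peaks of 2.01, 2.26 and 2.49 in the last 3 libraries, at gaps of 452, 469 and 357 bp. In control replicate 1 the nearest peak, of 1.52, was 537 bp away.

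Knockdown of lid was the contrast of the study. In the lists as deposited, it did not go with a difference in these genes beyond the spread of the controls. The number of tRNA genes with a peak was 41 ± 14.1 for the controls (SD, n = 2) and averaged 37.5 for lid KD (both libraries, counted as 1 sample), a difference of -3.5 genes (p = 1 in an exact two-sided permutation of the 4 libraries, whose smallest p is 0.33). Among away genes it was 31.5 ± 16.3 against 28.5, and among near genes 9.5 ± 2.12 against 9.0 (p = 1 for each in the same exact test). Without control replicate 2 the difference was 6.5 genes in all and 8.5 among away genes, with lid KD higher. Without control replicate 1 it was -13.5 and -14.5, with lid KD lower. Among near genes it was -2.0 without control replicate 2 and 1.0 without control replicate 1. No p is given for these, since 1 control and the lid KD pair as 1 sample allow no test. A p of this size in 2 against 2 libraries does not show that the groups are alike.

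In the lists as deposited, no tRNA gene had a peak in both controls but in no lid KD library, and none had the opposite pattern. Among coding windows these patterns were found in 0.703% and 0.194%. Such shares are so small that counts of 0 among 290 genes are not read as a difference from them. Most of the calls that differed followed single libraries. Control replicate 2 alone had a peak at 14 genes, all of the away class, with a fold enrichment of 1.58 to 2.55, and 8 further away genes had a peak in every library but control replicate 1. The latter ranged from 1.78 to 2.45 in control replicate 2 and from 1.47 to 2.26 and 1.60 to 2.49 in the lid KD libraries, each at a peak over 500 bp from any coding start site. Control replicate 1 alone had a peak at 4 genes, the Pro-CGG-2 trio among them, and 4 genes had a peak in every library but control replicate 2. The remaining 11 of the 61 genes had other patterns. Control replicate 2 also had a peak in more of the genome tiles, 26.0%, against 13.4%, 13.4% and 14.1% in the other libraries. No counts of these single-library patterns over the tiles are given, so they are not read as particular to tRNA genes.

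Strength was compared at the genes with a peak in all 4 libraries. At the 12 away genes, the median fold enrichment was 4.51, 2.70, 3.86 and 3.51, a difference of 0.08 (exact permutation test over 4 libraries, p = 1), and both lid KD values lay between the controls. The median percentile rank was 68.5 and 36.0 against 56.8 and 54.1, a difference of 3.20 (p = 1 in the same exact test). Without control replicate 2 the differences became -0.83 in fold enrichment and -13.0 in rank, and without control replicate 1 they became 0.98 and 19.5.

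Gene by gene, 1 tRNA gene of these 20 ranked at least 10 points higher in both lid KD libraries than in both controls, and 2 ranked lower by as much. Among 6358 coding windows with a peak in all 4 libraries, 1.27% ranked higher and 1.27% lower, and the tRNA counts are too small to be read against them. The higher gene was tRNA:Ile-AAT-1-8, beside ATP8A, a phospholipid flippase, with ranks of 22.2, 0, 39.7 and 34.9 and weak peaks of 1.64, 1.94, 2.42 and 2.19. The lower genes were the pyd pair tRNA:Arg-TCG-2-3 and tRNA:Arg-TCG-2-4, which share 1 peak, with ranks of 26.9, 28.3, 2.80 and 16.2. pyd encodes a cell junction protein. The next gaps were smaller: the Gln-CTG genes at CG4238 ranked 95.6, 96.8, 97.7 and 98.3, tRNA:Ser-TGA-2-1 ranked 84.0 and 80.7 against 75.8 and 73.8, and tRNA:Phe-GAA-1-2 ranked 81.0 and 85.3 against 78.1 and 77.4. With other rankings these calls were lost: 0 genes passed in either direction with ranks by -log10 p or with the lists as deposited.

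**Figure D5:**
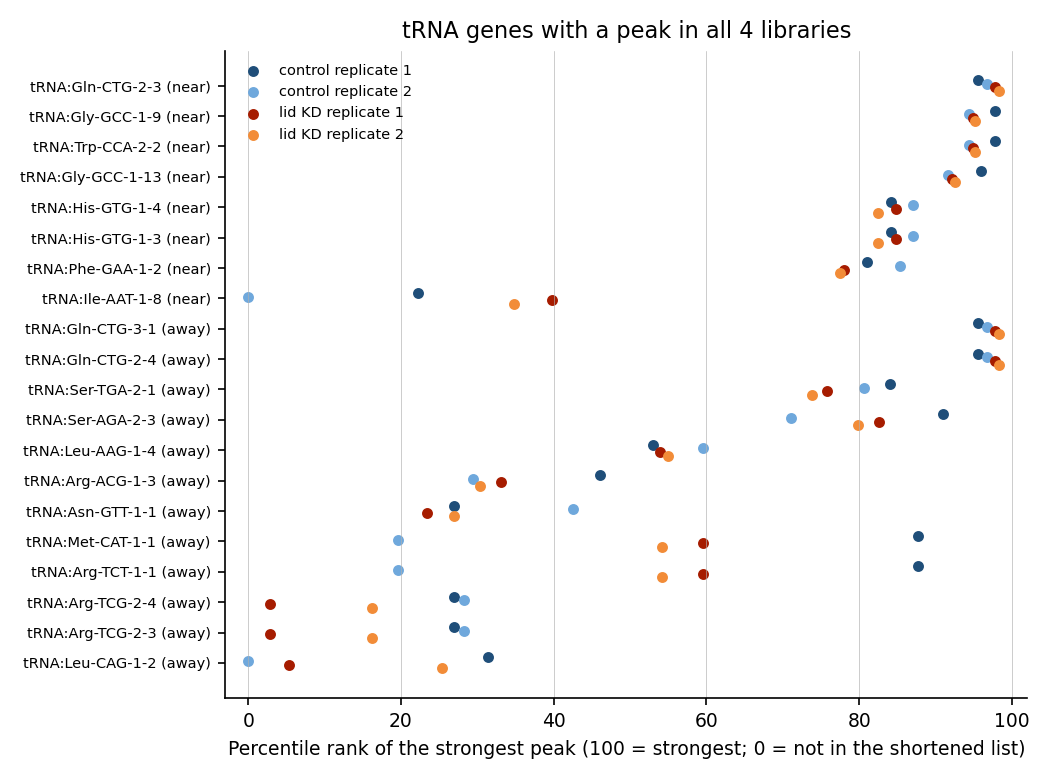
Percentile rank of the strongest peak (horizontal axis, 100 the strongest and 0 outside the shortened list) at the 20 tRNA genes with a peak in all 4 libraries, 1 point per library. The points of the 5 near promoter peaks named above all lie at or above 77.4, and tRNA:Met-CAT-1-1 and tRNA:Arg-TCT-1-1 have the controls at the ends of their range.

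Promoter peaks were also looked up at the coding genes that make and use tRNAs. Of the genes listed for RNA polymerase III and its factors, tRNA end processing, tRNA methylation and aminoacyl-tRNA synthetases, 40 were matched to the annotation and 39 of them had a promoter peak in all 4 libraries, where 45.6% of all 13945 coding windows did. The exception was Maf1, a repressor of RNA polymerase III, which had none in any library. For the 15 genes of RNA polymerase III and its factors, the median fold enrichment, with Maf1 taken as 0, was 5.08, 7.0, 5.49 and 5.76. Polr3A, the largest subunit, had 7.28, 10.4, 7.99 and 8.19, and Brf, a TFIIIB subunit, had 6.21, 9.61, 8.45 and 8.06. The 20 synthetases, which load each tRNA with its amino acid, had medians of 5.64, 8.30, 7.40 and 6.98, led by GluProRS in control replicate 2 with 14.1. La, which binds the 3′ end of new RNA polymerase III transcripts, had 7.37, 10.0, 9.07 and 8.66. The lid KD medians lay between those of the controls for the polymerase, the synthetases and end processing, and below both for the methyltransferases Mt2 and Nsun2, at 4.22 and 4.13 against 4.37 and 4.71.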

How the data were processed

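The authors aligned paired reads to dm6 with Bowtie2 2.3.3, discarded reads without a unique alignment, dropped duplicates (Picard 2.17.10) and called peaks per library with MACS2 2.1.1 at a q-value threshold of 0.1. Whether an input was used is not stated. Each deposited peak has a fold enrichment, a ratio of summit pileup to background, with the -log10 p-value and q-value that the authors' caller gave. The deposited score was left aside.

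Gene positions came from Ensembl BDGP6.54 (release 115), sequence from RefSeq dm6. Pileups and backgrounds were solved from the fold enrichment and -log10 p (whole pileups for at least 99.9% of weak peaks). Ranks used lists of 12087 peaks. Scripts ran in Python 3.11.15 and were tested on simulated peak lists. Groups and replicate numbers came from the sample titles. The members and lists were chosen with earlier results of these data known. Named genes: away genes with a peak in all 4 libraries, the 5 top near loci, the largest rank gaps, initiator and selenocysteine genes, and lid. Other genes were named after their values were seen. Alternatives are given in the closing section.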

Additional observations from a re-analysis of the deposited data

How the results depend on the processing

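For every alternative that kept all 4 libraries, the exact permutation p was 0.33 to 1. The values are differences in tRNA genes with a peak (lid KD minus control, genes), and their sign changed under some alternatives. For all tRNA genes, -3.5 became 0.5 with a window of 250 bp, with the gene itself or with the summit inside the window. It became 4.5 with lists of equal length, where both lid KD libraries were above both controls (p = 0.33, exact permutation). The counts there were 31 and 30 in the controls and 35 in each lid KD library, so the difference was beyond the spread of the controls. For away genes, -3.0 became 0.0 with 250 bp, 0.5 with the gene itself or the summit, and 4.5 with equal lists. For near genes, -0.5 became 0.5 with 250 bp, 0.0 with the gene itself, the summit or equal lists, and 0.5 at genes with more unique words (chosen after seeing the data). Left-out replicates gave ranges of -13.5 to 6.5, -14.5 to 8.5 and -2.0 to 1.0. At 250 bp the difference in median fold enrichment was -0.45 and in rank -5.05, and left-out replicates gave -0.83 to 0.98 and -13.0 to 19.5. Genes called in both controls only were 1 to 14 with a replicate left out. Those called in lid KD only were 3 with equal lists and 0 to 8 with a replicate left out. Rank gains and losses were each 0 by -log10 p and with deposited lists, and 4 without the margin, and losses were 0 at 250 bp. Left-out replicates gave 1 to 5 gains and 2 to 5 losses.

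The replicate numbers did not pair the libraries (r = -0.05 between the deviations of same-numbered libraries over 6358 coding windows). With a replicate block the differences stayed -3.5, -3.0 and -0.5 genes, 0.08 in fold enrichment and 3.20 in rank (exact sign-flip test over 2 pairs, p = 1), and counting the lid KD pair as 1 sample left them the same. The cause of the sign changes was not tested. At the lowest background, a peak weaker than 1.34-fold was not called in any library, and 2 libraries per group allow no p below 0.33.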
